A study of Mus musculus with 7 samples.

Results

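The 10 genes described here encode TRP channels with reported temperature gating: Trpm2, Trpm3, Trpm4 and Trpm8 of the melastatin subfamily, Trpv1, Trpv2, Trpv3 and Trpv4 of the vanilloid subfamily, the canonical channel Trpc5 and the ankyrin channel Trpa1. They were picked as a named channel group, with earlier results of these data known, and all 10 were found among the 24062 gene symbols counted. The counts came from Patch-seq, in which the contents of a neuron are drawn into the recording pipette and sequenced. ZsGreen-positive neurons of adult Esr1-ZsGreen mice, whose green fluorescent reporter marks cells that express ERα, were recorded in brain slices of the medial preoptic area (MPA) while the bath was warmed by 5 °C, so that the neurons of both groups had met the same warming. Cells with similar responses were pooled, 2 neurons to a sample, giving 4 temperature-responsive and 3 non-responsive samples, and the reporter is a transgene that stands in for ERα.

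TRP channels are cation channels of 4 subunits that let sodium and, in most cases, calcium into the cell. Several of them open within a limited range of temperature, and in sensory ganglia they turn heat, warmth or cold into firing. In the preoptic area, where neurons respond to the temperature of the brain itself, TRPM2 is known as a warmth-activated channel that limits fever.

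All 7 libraries contained transcripts of the labelled kind of cell together with those of other cells. Between 1914497 and 2814360 reads were counted per temperature-responsive sample and between 3309361 and 5125280 per non-responsive sample, so that 3 counts, taken here as the floor of detection, stood for 0.585 to 1.57 CPM (counts scaled to a total of 1000000 in each sample) depending on the sample. Floors cover counting error only, since the reads carried no molecular identifiers. Each of 6 neuronal markers had at least 3 counts in every sample. Esr1, the gene of ERα, had 10 to 27 counts, on average 7.35 CPM in temperature-responsive and 5.20 CPM in non-responsive samples. Per kilobase of annotated exon its mean was 0.470 CPM, near the 0.444 of Trpv3, a low channel described below. The methods name only female mice for these recordings, whereas the Y-linked Ddx3y had 684 to 1150 counts and Xist at most 14 counts in every sample, which touches Trpc5 as an X-linked gene. Libraries of one group differed beyond counting noise (2.03 to 5.11 for chi-square over its degrees of freedom), and nothing in the labels ties samples to animals, so the p-values below measure the spread between these samples. Fewer transcripts per neuron and fewer neurons with the transcript cannot be told apart in such pools.

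None of the 10 channel genes passed its test between temperature-responsive and non-responsive samples. Of the 7 that passed the filter on low counts, 0 were called in either direction by edgeR's quasi-likelihood test, and 0 by DESeq2 or limma-voom, at an adjusted p threshold of 0.05. At an unadjusted p under 0.05, 0 of the 7 passed in any of these tests. Over all 14407 genes tested, 30.0% were called, 15.1% as higher and 14.9% as lower in temperature-responsive samples. Of the tested channels, 4 had a negative and 3 a positive log2 fold change, with a median of -0.08 beside 0.01 over all genes tested. The channels together made up 287 to 433 counts in the temperature-responsive and 538 to 796 counts in the non-responsive samples, between 0.0126% and 0.0164% of all counts.

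**Figure D1:**
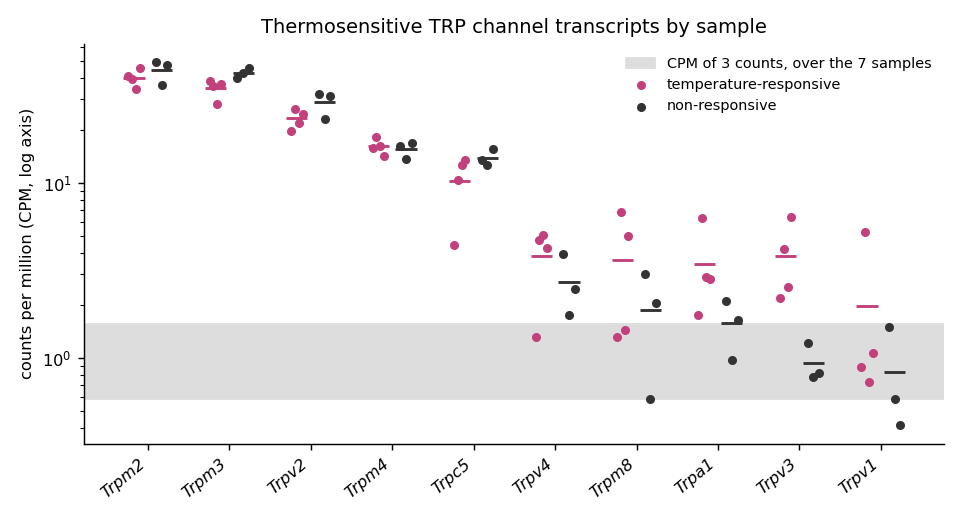
Level of each of the 10 TRP channel genes in CPM on a log axis, not corrected for gene length. Each point is a sample, with 4 temperature-responsive samples in pink and 3 non-responsive samples in black, lines are group means, and the grey band covers the level of 3 counts over the 7 samples. Trpm2, Trpm3, Trpv2, Trpm4 and Trpc5 lay above the band in every sample, whereas the other 5 genes reached into it or close to it.

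Trpm2 encodes a cation channel opened by ADP-ribose and sensitised by warmth and oxidants, and the gene occupies chromosome 10 between 77907722 and 77970563 of mm10, the build of all positions given here. Its level was 41.1, 39.2, 34.4 and 45.1 CPM in temperature-responsive replicates 1 to 4 and 49.0, 36.5 and 47.1 CPM in non-responsive replicates 1 to 3. The ranges overlapped, with the lowest value in a temperature-responsive and the highest in a non-responsive sample. The group means were 39.9 ± 4.45 CPM (SD, n = 4) and 44.2 ± 6.72 CPM (SD, n = 3), on 75 to 229 counts. The log2 fold change of -0.08, with a standard error (SE) of 0.155, did not pass the threshold (edgeR adjusted p = 0.730). Its 95% confidence interval ran from -0.40 to 0.24, or from 0.758-fold to 1.18-fold.

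Trpm3, which encodes a channel opened by noxious heat and by the neurosteroid pregnenolone sulphate, lies on chromosome 19 from 22139046 to 22995410. It measured 38.0, 36.0, 28.2 and 36.6 CPM in the temperature-responsive replicates and 39.6, 42.5 and 45.4 CPM in the non-responsive replicates. Every temperature-responsive sample was below every non-responsive sample, by a gap between 38.0 and 39.6 CPM that was narrower than the spread within either group. Trpm3 was the only one of the 7 tested channels whose groups did not overlap in CPM, whereas 35.9% of all genes tested did not. With library sizes adjusted by TMM, as in the edgeR test, the groups of Trpm3 overlapped. Temperature-responsive replicate 1 was then at 40.2 CPM and non-responsive replicate 1 at 39.5 CPM. Its log2 fold change of -0.24 (SE 0.154) did not pass the threshold (edgeR adjusted p = 0.246). The interval from -0.56 to 0.08 includes no change and falls as low as 0.680-fold.

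Trpm4 encodes a calcium-activated channel that carries monovalent cations and depolarises the cell, and lies on chromosome 7 from 45302632 to 45333780. Its level was 15.9, 18.3, 16.3 and 14.2 CPM in temperature-responsive and 16.3, 13.7 and 16.9 CPM in non-responsive samples, and the ranges overlapped almost fully. The log2 fold change was 0.11 (SE 0.218, edgeR adjusted p = 0.745), with an interval from -0.34 to 0.56. Abcc8, the sulphonylurea receptor that can pair with TRPM4, had a log2 fold change of -0.17 (edgeR adjusted p = 0.472).

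Trpm8 encodes the cold and menthol receptor, and lies on chromosome 1 from 88277661 to 88389293. It stood at 1.32, 6.79, 1.45 and 4.97 CPM in temperature-responsive and 3.02, 0.585 and 2.06 CPM in non-responsive samples, from 3 to 14 counts each. Replicates 2 and 4 of the temperature-responsive group were the highest of the 7 samples, and replicates 1 and 3 lay within the range of the non-responsive group. The log2 fold change of 1.02 (SE 0.648) did not pass the threshold (edgeR adjusted p = 0.242), and the interval from 0.804-fold to 5.12-fold was too wide to tell a rise from no change. Trpm8 shares 8.20% of its exonic bases with an antisense gene, 4930453O03Rik, which has no row among the counts, and the strand setting of the counting is not given in the sources used here.

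Trpv2 had the most counts of the vanilloid channels and lies on chromosome 11 from 62574486 to 62600515. It encodes a channel known for a very high heat threshold and for responses to stretch, and macrophages express it too. Its level was 19.9, 26.6, 22.1 and 24.9 CPM in temperature-responsive and 32.3, 23.2 and 31.2 CPM in non-responsive samples. Non-responsive replicate 2 lay within the temperature-responsive range, and the other two non-responsive samples lay above it. The means were 23.4 ± 2.99 CPM (SD, n = 4) and 28.9 ± 4.98 CPM (SD, n = 3), a log2 fold change of -0.25 (SE 0.185, edgeR adjusted p = 0.330). The interval ran from 0.647-fold to 1.10-fold.

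Trpv4, the gene of a channel opened by warmth and cell swelling, lies on chromosome 5 from 114622152 to 114658421. It measured 1.32, 4.70, 5.07 and 4.26 CPM in temperature-responsive and 3.93, 1.76 and 2.47 CPM in non-responsive samples, from 3 to 14 counts. Temperature-responsive replicate 1 was the lowest of the 7 samples and the other 3 of its group were the highest. The log2 fold change of 0.60 (SE 0.526) did not pass the threshold (edgeR adjusted p = 0.412), with an interval from 0.714-fold to 3.20-fold.

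Trpv1 and Trpv3 are neighbours on chromosome 11, 6145 bases apart. Trpv1, the gene of the capsaicin and noxious heat receptor from 73234292 to 73261242, had 2, 10, 2 and 3 counts in the temperature-responsive and 5, 3 and 2 counts in the non-responsive replicates. It reached the floor of 3 counts in 4 of 7 samples, and the largest value, 5.22 CPM in temperature-responsive replicate 2, stood apart from the 0.724 to 1.07 CPM of the others in that group. The difference in mean CPM of 1.14 lay within the spread between samples (two-sided exact permutation test, p = 0.629), and without temperature-responsive replicate 2 it was 0.0554.

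Trpv3 encodes a warmth-activated channel best known from skin and lies on chromosome 11 from 73267388 to 73300363. It had 5, 8, 7 and 18 counts in the temperature-responsive replicates and 4 counts in each non-responsive replicate, on totals that were larger there. The level was 2.21, 4.18, 2.53 and 6.40 CPM against 1.21, 0.780 and 0.822 CPM, so that every temperature-responsive sample lay above every non-responsive sample. The means were 3.83 ± 1.92 CPM (SD, n = 4) and 0.937 ± 0.236 CPM (SD, n = 3), and the difference of 2.89 CPM did not pass the test (two-sided exact permutation test, p = 0.0857, with 0.0286 the smallest p that 4 samples against 3 allow). Trpv3 did not meet the filter of the fit. With every gene of at least 1 count admitted it was called higher in temperature-responsive samples (log2 fold change 1.99, edgeR adjusted p = 0.0232). In that setting 5641 of all 22797 genes were called in either direction, and Trpv3 was 1 of the 10 channels. Among the 7196 untested genes with at least 3 counts in all, 18.3% showed every temperature-responsive sample above every non-responsive sample.

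Trpc5 and Trpa1 were the remaining channels. Trpc5, the gene of a cold-sensitive canonical channel, lies on chromosome X from 144381671 to 144688180. Its level was 4.42, 10.4, 12.7 and 13.5 CPM in temperature-responsive and 13.6, 12.7 and 15.6 CPM in non-responsive samples, on 10 to 76 counts. Temperature-responsive replicate 1 was the lowest by far, and replicates 3 and 4 of that group lay within or next to the non-responsive range. The log2 fold change of -0.37 (SE 0.282, edgeR adjusted p = 0.336) moved to -0.15 without that replicate, and its interval in all samples ran from 0.517-fold to 1.16-fold.

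Trpa1, the gene of the irritant receptor on chromosome 1 from 14872648 to 14918862, had 4, 12, 8 and 8 counts in temperature-responsive and 7, 5 and 8 counts in non-responsive samples. Its level of 1.77, 6.27, 2.90 and 2.84 CPM overlapped the 2.12, 0.976 and 1.64 CPM of the non-responsive group. The difference in mean CPM of 1.87 did not pass the test (two-sided exact permutation test, p = 0.143) and was 0.924 without temperature-responsive replicate 2. The tests of Trpv1, Trpv3 and Trpa1 were 3 single tests without adjustment.

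**Figure D2:**
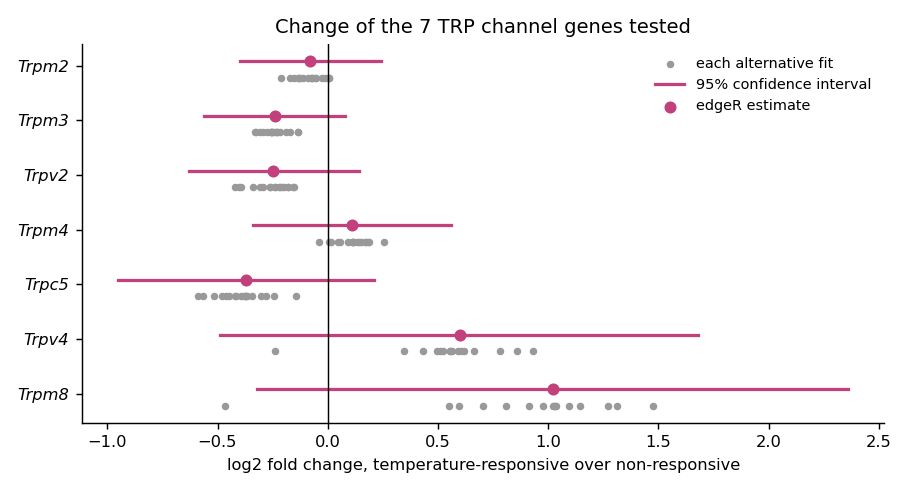
Log2 fold change of temperature-responsive over non-responsive samples for the 7 channels tested. Pink points are edgeR estimates, pink lines are 95% confidence intervals, and grey points are the estimates under each alternative analysis. All 7 intervals include 0, and they are narrowest for Trpm2 and Trpm3 and widest for Trpm8 and Trpv4.

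Precision followed the number of counts. The standard error of the log2 fold change was 0.154 for Trpm3 and 0.155 for Trpm2, on 906 and 968 counts over the 7 samples, and 0.526 for Trpv4 and 0.648 for Trpm8, on 72 and 57 counts. With all samples drawn down to the lowest total, Trpm2, Trpm3, Trpm4, Trpv2, Trpc5 and Trpa1 kept at least 3 counts in all 7 samples. Trpv4 did so in 6, Trpm8 and Trpv3 in 5, and Trpv1 in 2. Before this, 9 of the 10 channels had at least 3 counts in every sample and all 10 had at least 1.

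Per length, Trpv2 was the most abundant of these channels. CPM were divided by the kilobases of annotated exon to compare genes with each other, which gave 5.74 ± 1.04 CPM per kilobase for Trpv2 (SD, n = 7). Trpm2 followed with 3.35 ± 0.440, Trpc5 with 2.36 ± 0.722, Trpm3 with 1.56 ± 0.224 and Trpm4 with 1.47 ± 0.145 CPM per kilobase. Trpv4 stood at 0.824, Trpa1 at 0.620, Trpm8 at 0.610, Trpv3 at 0.444 and Trpv1 at 0.404 CPM per kilobase. The ranges over samples did not overlap between Trpv2 and Trpm2 or between Trpm4 and Trpv4. All other neighbours in this order overlapped, and Trpm3 exceeded Trpm4 in 5 of 7 samples only. With the longest transcript in place of all annotated exons, Trpv2 and Trpm2 remained the highest pair, at 7.02 and 5.74 CPM per kilobase with overlapping ranges. Trpm4 then rose to the third place, because Trpm3 and Trpm4 have 24.4 and 10.8 kilobases of annotated exon but longest transcripts of 12305 and 4315 bases.

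**Figure D3:**
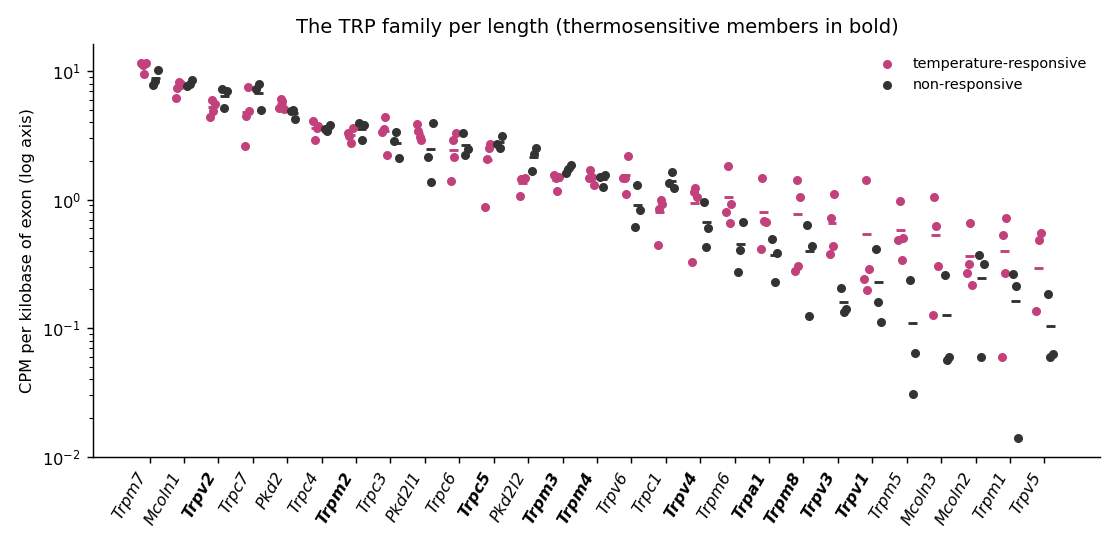
Level of the TRP family in CPM per kilobase of exon on a log axis, with the thermosensitive channels in bold. Points are samples (4 temperature-responsive in pink, 3 non-responsive in black) and lines are group means; Trpc2, with 0 counts, and single values of 0 are not drawn. Trpm7 and Mcoln1 were the most abundant, Trpv2 held the third place, and the thermosensitive channels were spread from the third to the 22nd of 27 genes.

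The rest of the TRP family gave a frame for these levels. The list held 18 genes, of which 13 were tested. In temperature-responsive samples 2 of these rose, a share near the 15.1% of all genes tested, and 0 fell, with a median log2 fold change of 0.29. With the number of detected genes per sample in the fit, which did not overlap between the groups, neither of these calls nor those of the 3 lists that follow remained, at edgeR adjusted p between 0.178 and 0.798. All of these genes kept their direction there, and log2 fold changes such as 0.57 for Trpm7, 1.36 for Trpm6, -0.45 for Nudt9, -0.62 for Stim1 and 0.97 for Ano1 were about as large as without it or larger. Trpm7, a channel fused to a kinase that carries magnesium and zinc, was the most abundant at 9.99 CPM per kilobase. Its level was 123 ± 11.5 CPM in temperature-responsive (SD, n = 4) and 99.2 ± 13.1 CPM in non-responsive samples (SD, n = 3) (log2 fold change 0.37, edgeR adjusted p = 0.0156). Its relative Trpm6, a magnesium channel of epithelia, had 8.12 ± 4.08 and 3.46 ± 1.54 CPM (log2 fold change 1.22, edgeR adjusted p = 0.0362), with overlapping groups. The GC content offset lowered the log2 fold change of Trpm7 to 0.14 (edgeR adjusted p = 0.380), and with all genes of at least 1 count admitted its adjusted p was 0.0668. The call of Trpm7 was also lost without non-responsive replicate 1 or 2 (edgeR adjusted p of 0.0544 and 0.0775) and that of Trpm6 without either of these or without temperature-responsive replicate 2 (up to 0.189), when downsampled (0.0683), with the GC content offset (0.0526) and by limma-voom (0.0502). Trpc4, the closest relative of Trpc5, was level between the groups at 28.8 ± 3.84 and 28.8 ± 1.55 CPM (log2 fold change 0.06, edgeR adjusted p = 0.810), and Trpc1, which can join TRPC4 and TRPC5 in mixed channels, had a log2 fold change of -0.74 (edgeR adjusted p = 0.0676). Trpm5, a heat-sensitive taste channel related to Trpm4 and not among the 10, had 2.17 to 6.27 CPM in temperature-responsive and 0.195 to 1.51 CPM in non-responsive samples and was too low to be tested. The thermosensitive channels made up 23.6% to 30.6% of the family's summed level per kilobase.

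The lists of genes around the channels held calls at shares near the 30.0% of all genes tested. Among 10 genes of ADP-ribose metabolism, which supplies the ligand of TRPM2, 9 were tested, 0 were called higher and 3 lower, with a median log2 fold change of -0.19. Nudt9, the ADP-ribose hydrolase whose domain TRPM2 shares, was 84.9 ± 9.66 CPM in temperature-responsive (SD, n = 4) and 126 ± 8.89 CPM in non-responsive samples (SD, n = 3) (log2 fold change -0.50, edgeR adjusted p = 0.00143) and was also the most abundant of the list per length. Adprh, which removes ADP-ribose from arginine, fell with a log2 fold change of -0.36 (edgeR adjusted p = 0.0156), and Macrod1, a hydrolase of ADP-ribosylated targets, with one of -0.80 (edgeR adjusted p = 0.00234). The call of Adprh was lost without temperature-responsive replicate 4 or non-responsive replicate 3 (edgeR adjusted p of 0.0557 and 0.0879), and those of Nudt9 and Macrod1 held whichever sample was left out. Cd38, which forms ADP-ribose and cyclic ADP-ribose from NAD, had a log2 fold change of 0.47 (edgeR adjusted p = 0.0666).

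Of 12 regulators of TRP channels, 11 were tested, 3 were called higher and 1 lower, with a median log2 fold change of 0.15. Calm2, a calmodulin gene whose product binds many TRP channels, rose from 240 ± 53.1 CPM (SD, n = 3) in non-responsive to 397 ± 65.8 CPM (SD, n = 4) in temperature-responsive samples (log2 fold change 0.79, edgeR adjusted p = 0.00114). Plcb2 and Plcb4 encode phospholipases that break down PIP2, a lipid that many TRP channels need, and they went in opposite directions, with log2 fold changes of 0.99 (edgeR adjusted p = 0.0328) and -0.85 (edgeR adjusted p = 0.00197). Plcb2 was no longer called without temperature-responsive replicate 2 or 4 or non-responsive replicate 2 or 3 (edgeR adjusted p from 0.0537 to 0.168). With replicate number as a block in the fit its call was also lost (log2 fold change 0.71, edgeR adjusted p = 0.192). Calm2 and Plcb4 were called whichever sample was left out. Pirt, a partner of TRPV1 and TRPM8 in sensory neurons, had 21 counts over all samples and was not tested.

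A list of 8 other proteins with reported temperature sensitivity had 8 tested, 1 called higher and 2 lower, with a median log2 fold change of -0.15. Ano1, a heat-sensitive chloride channel, had a log2 fold change of 1.04 (edgeR adjusted p = 0.0188). Stim1, the calcium store sensor, fell with one of -0.56 (edgeR adjusted p = 0.00928) and the leak potassium channel Kcnk4 with one of -1.21 (edgeR adjusted p = 0.0135). Stim1 was called whichever sample was left out, Ano1 was not without temperature-responsive replicate 3 (edgeR adjusted p = 0.120) or when all samples were downsampled to the lowest total (log2 fold change 0.75, edgeR adjusted p = 0.121), and neither Ano1 nor Kcnk4 was without non-responsive replicate 3 (0.0830 and 0.126). Stim2 was the most abundant of this list per length and had a log2 fold change of 0.15 (edgeR adjusted p = 0.281).

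The low channel genes were set beside olfactory receptor genes, which define the sensory neurons of the nose and served as a measure of scattered reads in these libraries. The summed CPM of 1094 olfactory receptor genes was divided by their summed kilobases, which gives an average level per length and not a sum over genes. This level was 0.0918, 0.222, 0.111 and 0.171 CPM per kilobase in temperature-responsive replicates 1 to 4. In the non-responsive replicates it was 0.0708, 0.0251 and 0.0129 CPM per kilobase. It was higher in every temperature-responsive than in every non-responsive sample (two-sided exact permutation test, p = 0.0571). Trpm8, Trpv1 and Trpa1 were each highest in temperature-responsive replicate 2, the sample with the highest olfactory receptor level. Each of the 5 channels under 10 CPM was highest in a temperature-responsive sample, the group that held 4 of the 7 samples. How many other low genes were highest in that group was not counted. All 10 channels exceeded the olfactory receptor level in all 7 samples. The smallest ratios were 1.69 for Trpv1, 2.77 for Trpm8 and 2.93 for Trpv3, whereas Trpv2 was at least 26.8 and Trpm2 at least 14.2 times that level. Like the olfactory receptor level, Trpv3 was higher in every temperature-responsive than in every non-responsive sample. In non-responsive replicate 3, where the olfactory receptor level was lowest, Trpv4 was at 0.605, Trpm8 at 0.434 and Trpa1 at 0.386 CPM per kilobase. Trpv3 was at 0.141 and Trpv1 at 0.112 CPM per kilobase there. The part of scattered reads in the levels of the low channels was not tested.

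**Figure D4:**
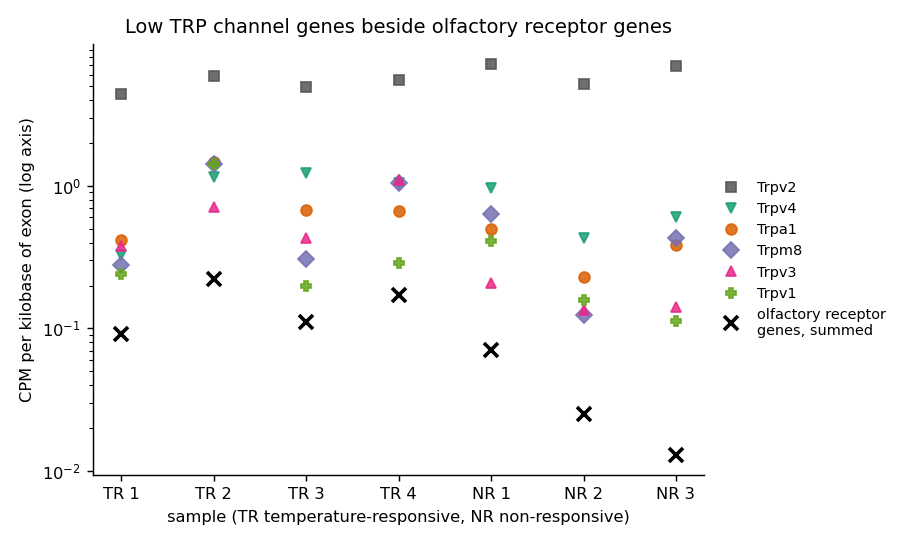
Level per kilobase of exon, on a log axis, of the 5 channels under 10 CPM and of Trpv2 in each of the 7 samples. Black crosses are the average level of the olfactory receptor genes, their summed CPM over their summed kilobases. The crosses fall from 0.222 in temperature-responsive replicate 2 to 0.0129 in non-responsive replicate 3, and the 5 low channels lie closer to them than Trpv2 does.

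Several of the channels are also known from glia, vessels or the choroid plexus, and markers of those cells were present. Microglia, which use Trpm2 and Trpv2, had 6 markers that summed to 338.3 to 401.2 CPM in temperature-responsive and 375.2 to 393.7 CPM in non-responsive samples, with 2 called higher and 1 lower. Choroid plexus, a known site of high Trpm3, had 6 markers at 295.4 to 392.3 and 272.1 to 348.7 CPM, with 1 called higher and 0 lower. Neither sum separated the groups. For Trpv4, which astrocytes and endothelium also express, the 6 astrocyte markers summed to 1343 to 1491 and 1127 to 1340 CPM (2 higher, 1 lower). The astrocyte sums did not overlap between the groups, by a narrow gap from 1340 to 1343 CPM. The 6 endothelial markers summed to 75.33 to 201.3 and 15.83 to 47.14 CPM (5 higher, 0 lower), and 6 mural markers to 58.98 to 197.4 and 35.97 to 45.02 CPM (4 higher, 0 lower), without overlap between the groups. The 6 oligodendrocyte markers reached 3092 to 3905 and 2754 to 3347 CPM (2 higher, 1 lower). The 6 neuronal markers summed to 2982 to 3321 and 2779 to 3125 CPM (1 higher, 2 lower). Markers of sensory ganglion neurons, the classic site of Trpv1, Trpm8 and Trpa1, summed to 37.98 to 54.72 and 32.03 to 49.56 CPM, with 3 of 5 tested genes called higher. Over all genes tested, 15.1% were called higher and 14.9% lower. No marker of these lists was at 0 in all samples. The part of these cells in the channel levels was not tested.

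The genes whose profile over the 7 samples lay nearest to each tested channel were found by the root mean square difference of centred log2 CPM. For Trpm2 these were Sp1, Ttc13 and Slc27a3, at 0.0670 to 0.0798 against a spread of Trpm2 itself of 0.173. Trpm3 was nearest to Paqr6, Cux1 and Pfkm, at 0.0561 to 0.0741, and Trpm4 lay close to Tmem35 and Aplp1, at 0.0555 and 0.0588. Gigyf1, Ltbp3 and Mnt were nearest to Trpv2, at 0.0575 to 0.0769. For Trpc5, with a spread of 0.495, the nearest were Nme7, Pitpnm2 and Nfyc, at 0.127 to 0.152. Trpm8, with a spread of 0.860, was nearest to Alx4 at 0.248, and Trpv4, with a spread of 0.570, to BC065397 at 0.174. Of the 21 nearest genes only Pitpnm2 was called, as lower in temperature-responsive samples.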

How the data were processed

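Libraries were made from pooled pairs of recorded neurons (SMART-seq V4). Raw counts per gene symbol were deposited by the authors, made with STAR 2.6.0 on mm10, RmDup and HTSeq 0.9.1 (versions from the submitters' processing notes). RmDup drops duplicates, and with no molecular identifiers some distinct molecules of abundant genes may go with them. The annotation and strand setting are not given in the sources used here. Samples were grouped by their labels. CPM were scaled to each sample's total. A filter of 10 or more counts in 3 or more samples left 14407 genes for edgeR 4.0.16 in R 4.3.3 (TMM, robust quasi-likelihood test, two-sided), with p-values adjusted after Benjamini and Hochberg and a threshold of 0.05. Scripts were tested on simulated data. The 3 channels below this filter were compared by exact permutation of mean CPM over 35 splits. DESeq2 1.42.0, limma 3.58.1, other normalizations, filters and covariates and a GC offset (mgcv 1.9.3) were alternatives. Positions, exon lengths and transcripts came from GENCODE M21 on the same build, matching 98.4% of symbols. All 10 channels are named; of each further list, the genes called and the most abundant one per length are named, and others as their relation to a channel required, the latter chosen after their values were seen. Members and lists were chosen with earlier results of these data known, as was the comparison with olfactory receptor genes. A called gene of one list and a nearest gene of one channel are not reported here. No sequences are shown, since no protein table was used here.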

Additional observations from a re-analysis of the deposited data

Results flagged for a closer look

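Trpv1 in temperature-responsive replicate 2 lay far from the other 3 samples of its group, with 5.22 CPM on 10 counts and a gap to the nearest sample of 0.924 of the whole range. It was the only such sample among the 10 channel genes examined, and chance gives about 1 in 20 groups. The same sample had the highest level of olfactory receptor genes, 0.222 CPM per kilobase, and the lowest total, 1914497 counts; their part in the value was not tested.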

How the results depend on the processing

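The alternatives were set with earlier results of these data known. No channel was called under any of them except with all genes of at least 1 count admitted, where 1 of 10 (Trpv3) passed. Of all genes, 5641 of 22797 were called in that setting. The number of all genes called, 4327, was 1 with detected genes as a covariate, which separate the groups (19852 to 21177 against 17818 to 19820), and 2620 to 4583 with each sample left out; 2620 is without non-responsive replicate 3. The cause was not tested. With the replicate block, 4124 genes and 0 channels were called. In the further lists, the calls of Plcb2, Trpm6 and Kcnk4 were lost there (edgeR adjusted p of 0.192, 0.0663 and 0.0551). Same-numbered samples share only a number (correlations of their deviations from -0.128 to 0.032), and replicate 4 has no partner.

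Signs near 0 were not stable. Trpm2 was 0.0072 with the GC content offset and from -0.21 to 0.0076 with a sample left out, and Trpm4 was -0.038 when downsampled. With the covariate, Trpm8 was -0.47 and Trpv4 -0.24. Trpm3, Trpv2 and Trpc5 were negative under all 18 alternatives, with adjusted p from 0.118 to 0.860 for Trpm3. Trpm8 and Trpv4 did not pass the filters of at least 10 counts in every sample and of the downsampled counts. At 57 to 72 counts over all samples, changes of Trpm8 and Trpv4 of up to 5.12-fold and 3.20-fold lay within their intervals. The 12 calls in the further lists were tried under the same alternatives after the data were seen, and each was lost with the covariate but kept its direction, with log2 fold changes such as 0.57 for Trpm7 and -0.45 for Nudt9; Nudt9, Macrod1, Calm2, Plcb4 and Stim1 were among those called under all others.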
